A study of Homo sapiens with 6 samples.

Results

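The genes described here belong to the tissue factor pathway of blood coagulation, to its anticoagulant counterweights and to the receptors that sense clotting proteases. The set lists 8 genes, F13A1, F3, TFPI, TFPI2, THBD, PROCR, F2R and F2RL1, and 7 of them were measured, out of 18417 genes tested. F2RL1 was not analysed here, because no probe of the annotation used names it. A probe here is the set of oligonucleotides that reads 1 transcript. Where a gene has several probes with 1 gene symbol, the one with the highest mean over all 6 arrays stands for it, but each of the 7 measured genes had 1 probe. The probes were selected on that mean level. The genes were chosen by their part in coagulation, with earlier results of the comparison between the siRNAs known, among them the higher level of F13A1, so the members' share of calls is given as a description and supports nothing.

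H441 is an established human lung adenocarcinoma line. Its cells were transfected, with the lipid reagent Lipofectamine RNAiMAX, with a scrambled control siRNA or with siRNA directed at ETS2, a transcription factor of the ETS family, both from Dharmacon and named SMARTpool in the series' design text. Total RNA was taken 48 h later and read on an Affymetrix human gene array, 3 arrays per group, each from its own transfection. Both groups therefore carried a transfected siRNA, the knock-down was transient, and 1 ETS2 reagent was set against 1 control in 1 cell line.

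Tissue factor, the product of F3, is a membrane protein that binds factor VII and starts clotting when blood meets the cells that carry it. The extrinsic route it opens leads to thrombin, which cuts fibrinogen into fibrin, and factor XIII, whose catalytic A subunit is the product of F13A1, then cross-links the fibrin strands. TFPI holds the route back by blocking tissue factor with factor VII and factor X, while TFPI2 is a related Kunitz-type inhibitor that acts mainly on plasmin and other serine proteases of the matrix. Thrombomodulin (THBD) and the endothelial protein C receptor (PROCR) turn thrombin towards activating the anticoagulant protein C. F2R and F2RL1 encode protease-activated receptors, G protein-coupled receptors that thrombin and trypsin-like proteases, respectively, switch on by cutting their outer end. Epithelial tumour cells often carry tissue factor and these receptors outside any blood vessel.

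The 250 bases before the RefSeq start are shown for the 4 genes whose groups did not overlap, since an ETS factor was lowered and these are the windows in which its recognition letters can be looked for. They come from the RefSeq promoter table for GRCh38.p14, are written 5′ to 3′ on the strand of the gene, and all lie on the minus strand. Capitals mark each match to AGGAAGT, a heptamer around the ETS core GGAA, or to TGANTCA, the AP-1 heptamer, searched on both strands.
F13A1, chr6:6320663-6320912: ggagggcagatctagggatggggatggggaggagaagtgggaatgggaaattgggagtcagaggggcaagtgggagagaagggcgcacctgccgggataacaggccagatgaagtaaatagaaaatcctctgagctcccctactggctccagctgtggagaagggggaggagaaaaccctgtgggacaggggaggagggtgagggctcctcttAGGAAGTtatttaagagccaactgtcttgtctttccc
TFPI, chr2:187554436-187554685: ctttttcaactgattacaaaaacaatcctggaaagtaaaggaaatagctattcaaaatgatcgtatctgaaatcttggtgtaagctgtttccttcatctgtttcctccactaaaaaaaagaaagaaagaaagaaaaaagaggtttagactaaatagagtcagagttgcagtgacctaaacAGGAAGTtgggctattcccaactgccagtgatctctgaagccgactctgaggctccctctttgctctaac
F3, chr1:94541760-94542009: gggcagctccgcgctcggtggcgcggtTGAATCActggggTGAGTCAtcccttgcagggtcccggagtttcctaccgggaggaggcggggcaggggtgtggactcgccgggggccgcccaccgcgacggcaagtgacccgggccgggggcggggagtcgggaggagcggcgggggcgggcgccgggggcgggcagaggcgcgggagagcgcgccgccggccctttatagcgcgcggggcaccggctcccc
TFPI2, chr7:93890754-93891003: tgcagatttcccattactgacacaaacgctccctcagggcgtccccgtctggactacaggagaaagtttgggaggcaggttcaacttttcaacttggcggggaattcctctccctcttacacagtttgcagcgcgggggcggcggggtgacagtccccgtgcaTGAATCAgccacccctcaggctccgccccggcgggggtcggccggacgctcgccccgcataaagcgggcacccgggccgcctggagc

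F13A1 and TFPI each held 1 AGGAAGT, with its first base 37 bases before the start in F13A1 and 70 bases before it in TFPI. F3 held 2 matches to TGANTCA, 223 and 210 bases before the start, and TFPI2 held 1, at 87 bases. Among 35116 RefSeq promoter windows of this length, 7.01% held AGGAAGT and 6.57% held TGANTCA. A longer ETS motif that was also searched, CCGGAAGT, was in 3.42% of windows and had 0 matches in those of F13A1, TFPI, F3, TFPI2, PROCR and F2RL1. The core GGAA alone, which lies inside AGGAAGT, was present in 92.7% of windows, with 4 matches in F13A1, 6 in TFPI, 1 in F3 and 3 in TFPI2. The windows of PROCR and F2RL1, which are not printed, held neither heptamer and 8 and 5 matches to GGAA. No window was available here for THBD and F2R, so their promoters were not searched. A match to these letters is a description of the sequence and says nothing of binding.

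Levels are given as log2 RMA values, and each difference is ETS2 siRNA minus control. A gene is said to have changed at an adjusted p under 0.05 by limma, fitted over all 18417 genes with Benjamini-Hochberg adjustment. In that fit 904 genes changed, 4.91% of those tested, 2.28% higher and 2.63% lower. Among the 7 measured members 1 rose and 1 fell: F13A1 was 1.51-fold higher after ETS2 siRNA, and TFPI was at 83.1% of its control level. The median difference was -0.02 over the 7 members and 0.0033 over all genes. The groups did not overlap for 4 of the 7, F13A1, TFPI, F3 and TFPI2, and for 23.1% of all genes. The same 4 had an unadjusted p under 0.05, a level that 18.5% of all genes reached.

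ETS2 itself, the targeted gene, read 9.79, 9.91 and 9.79 in control cells and 8.87, 8.70 and 8.78 after its siRNA, so that the arrays matched their labels. Of 8 markers of lung epithelium all 8 lay above the background floor, a log2 value of 6.67 set by olfactory receptor genes. Among them SFTPB, a surfactant protein gene, was lower by 0.36 after ETS2 siRNA (limma adjusted p = 0.00770), KRT19 and NKX2-1 had an unadjusted p under 0.05 without passing (differences of 0.11 and -0.11), and the part of these shifts in the members' values was not tested. Array medians ran from 8.07 to 8.10. Every pair of arrays correlated at 0.9974 or more across genes, which are not independent replicates. The p-values measure the spread between separate transfections of 1 line. In such bulk RNA, fewer cells of a type and less RNA per cell cannot be told apart.

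**Figure D1:**
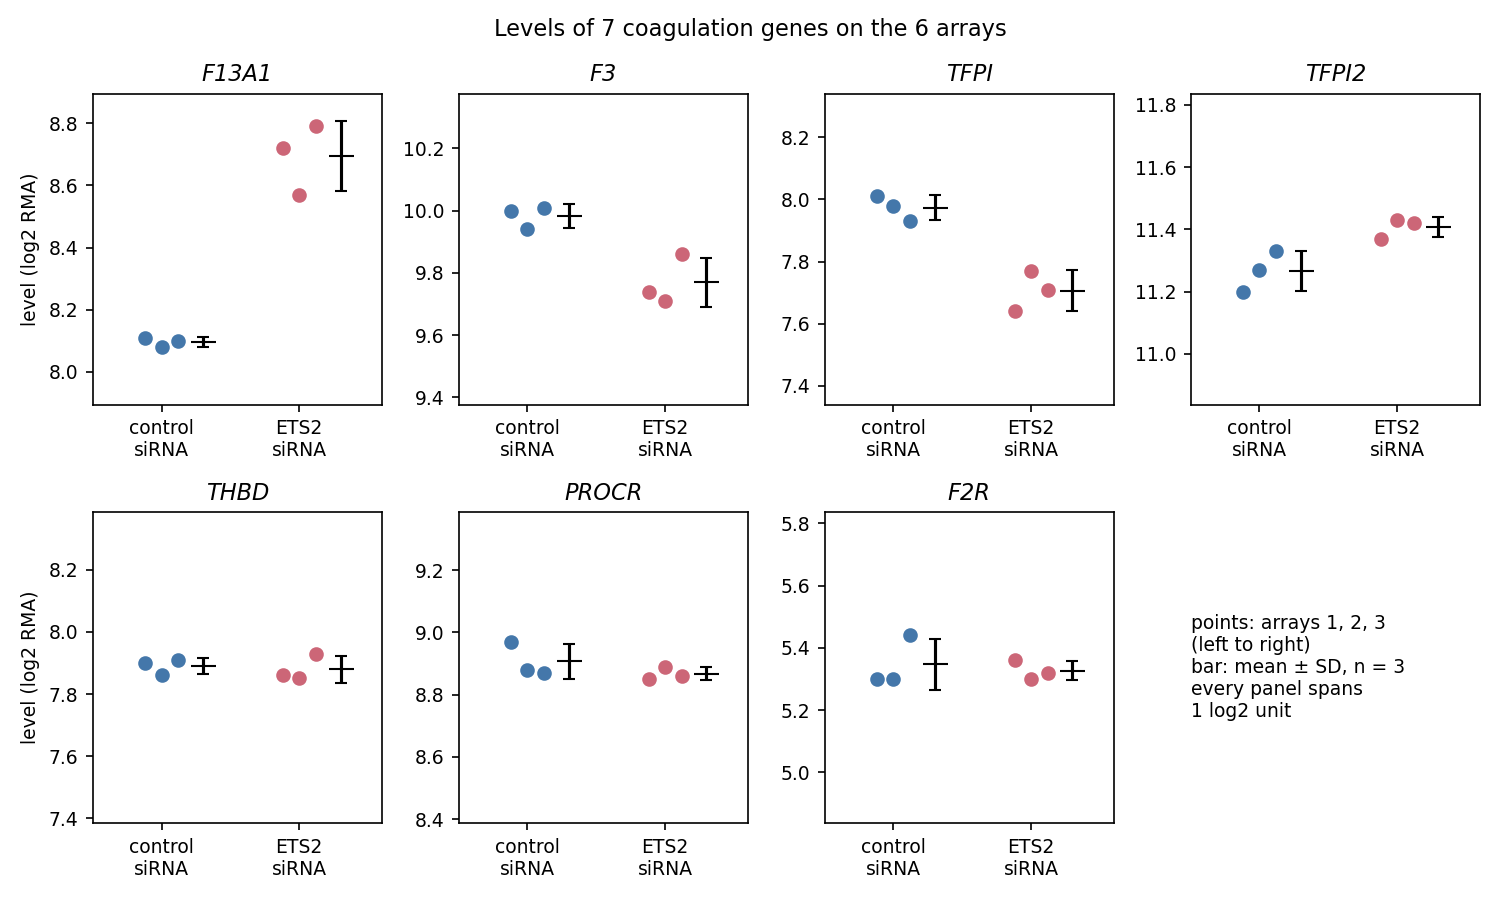
Level (log2 RMA, vertical axis) of each of the 7 measured genes on the 3 control siRNA arrays (blue) and the 3 ETS2 siRNA arrays (red), with the mean and SD of each group beside the points and the same span in every panel. The groups are apart for F13A1, F3, TFPI and TFPI2 and overlap for THBD, PROCR and F2R.

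F13A1, the fibrin-cross-linking subunit, stood at 8.11, 8.08 and 8.10 in control cells and at 8.72, 8.57 and 8.79 after ETS2 siRNA. All 3 ETS2 siRNA arrays lay above all 3 control arrays, and the arrays of the ETS2 siRNA group were more widely spread than those of the control group. The means were 8.10 ± 0.02 and 8.69 ± 0.11 (SD, n = 3), both above the background floor. F13A1 rose by 0.60 on the log2 scale (SE 0.0577, 95% interval 0.46 to 0.73, limma adjusted p = 0.00182). With any single array left out the difference lay between 0.55 and 0.66 and stayed called.

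Factor XIII A is found in megakaryocytes, platelets and macrophages, so their markers are given beside F13A1. Of 6 platelet and megakaryocyte markers 2 lay above the floor (GP9 and GP6), and PF4, PPBP, ITGA2B and GP1BA lay below it. Their summed level, the log2 of the sum of linear values of different probes, is a description that the brightest probes dominate. It ranged from 9.12 to 9.24 in controls and from 9.21 to 9.30 after ETS2 siRNA. Of 6 macrophage and leukocyte markers 3 were above the floor (CD14, CSF1R and ITGAM), while PTPRC, the pan-leukocyte phosphatase CD45, stood at 4.74 in controls and the macrophage receptors CD163 and MRC1 were also below. The summed level of that list was 8.88 to 8.91 in controls and 8.79 to 8.91 after ETS2 siRNA. By limma 0 of these 12 markers changed, and 1, ITGAM at -0.16, had an unadjusted p under 0.05, which 18.5% of all genes had.

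The tissue factor gene F3 read 10, 9.94 and 10.01 in control cells and 9.74, 9.71 and 9.86 after ETS2 siRNA. Every ETS2 siRNA array was lower than every control array. The means were 9.98 ± 0.04 and 9.77 ± 0.08 (SD, n = 3). The difference of -0.21 (SE 0.0499, 95% interval -0.33 to -0.10) had a limma adjusted p of 0.0515, just short of the threshold, and an unadjusted p of 0.00261. It passed under 4 of 10 other settings, the 2 filters on dim genes (adjusted p = 0.0265 and 0.00828), the variance trend (0.00484) and array weights (0.0276), and under 0 of the 6 fits that left out an array, where limma's adjusted p ran from 0.0595 to 0.180.

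TFPI, the inhibitor of tissue factor, was at 8.01, 7.98 and 7.93 in control cells and at 7.64, 7.77 and 7.71 after ETS2 siRNA. Again the groups were fully separate, with the ETS2 siRNA arrays lower. The means were 7.97 ± 0.04 and 7.71 ± 0.07 (SD, n = 3), and TFPI fell by 0.27 (SE 0.0467, 95% interval -0.37 to -0.16, limma adjusted p = 0.0183). The call was lost without control replicate 1 (limma adjusted p = 0.0675), without ETS2 siRNA replicate 1 (0.0613) and without ETS2 siRNA replicate 3 (0.0818), with differences from -0.30 to -0.23 over the 6 fits that left out an array.

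TFPI2, the matrix-bound relative of TFPI, had a difference of the opposite sign. It read 11.20, 11.27 and 11.33 in control cells and 11.37, 11.43 and 11.42 after ETS2 siRNA. The ETS2 siRNA arrays were all higher, though the lowest of them lay only a little above the highest control array. The difference of 0.14 (SE 0.0457, 95% interval 0.04 to 0.25) did not pass the threshold (limma adjusted p = 0.139). It passed under 2 of 10 other settings, with only the genes above the median level tested or with a variance trend (lowest limma adjusted p = 0.0145). Under the 6 fits that left out an array it passed in 0, with a limma adjusted p from 0.143 to 0.343.

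**Figure D2:**
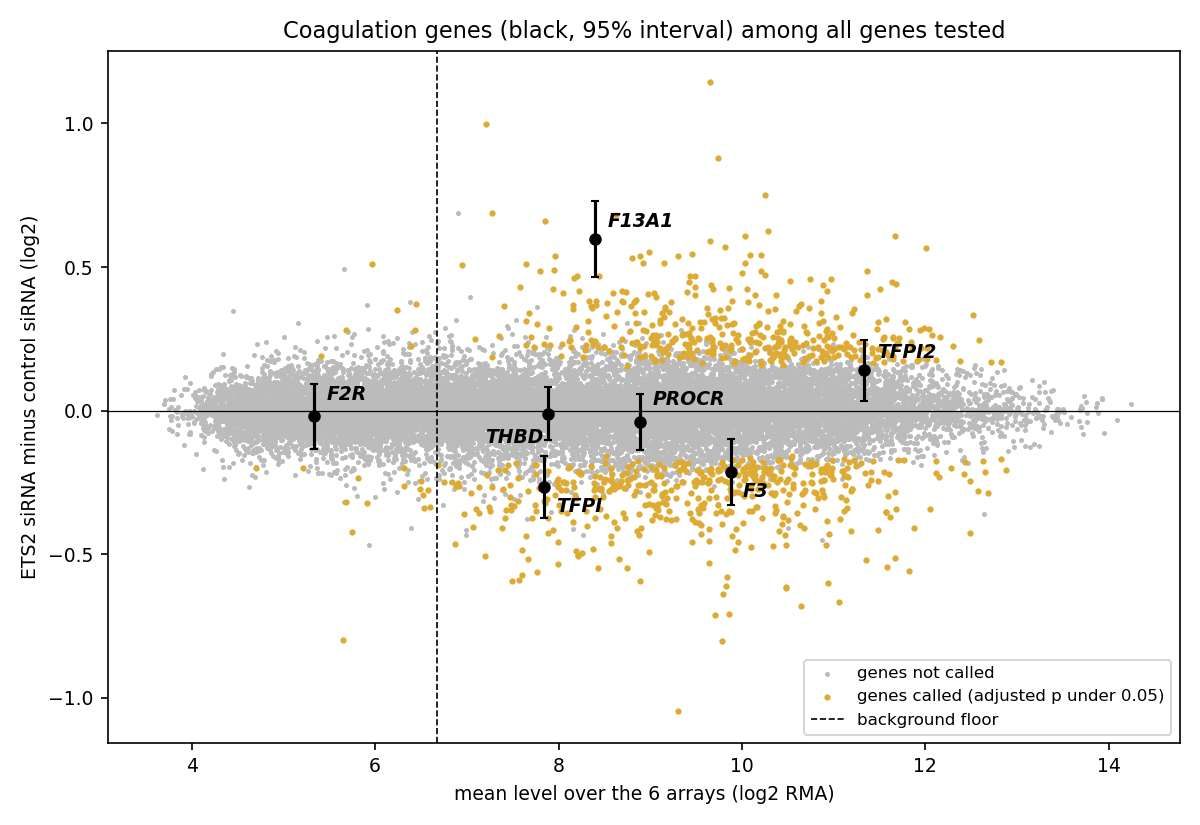
Difference between ETS2 siRNA and control siRNA (log2, vertical axis) against mean level over the 6 arrays (log2 RMA, horizontal axis) for 18417 genes, with called genes in yellow, other genes in grey and the 7 coagulation genes in black with 95% intervals. F13A1 stands at 0.60, TFPI at -0.27 and F3 at -0.21, and F2R lies left of the dashed background floor at 6.67.

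Because tissue factor and its inhibitor are read together, the log2 difference between their probes was also taken within each array, where only its change between groups has a meaning. F3 minus TFPI was 1.99, 1.96 and 2.08 in control cells and 2.10, 1.94 and 2.15 after ETS2 siRNA. The groups overlapped, and the change of 0.053 was smaller than the SD of the ETS2 siRNA group, 0.11 (exact permutation test, two-sided, p = 0.5, n = 3 per group). With 3 arrays against 3 that test cannot give a p under 0.1. The change is by construction the difference of F3, -0.21, less that of TFPI, -0.27, both given above, so it is not a separate result.

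**Figure D3:**
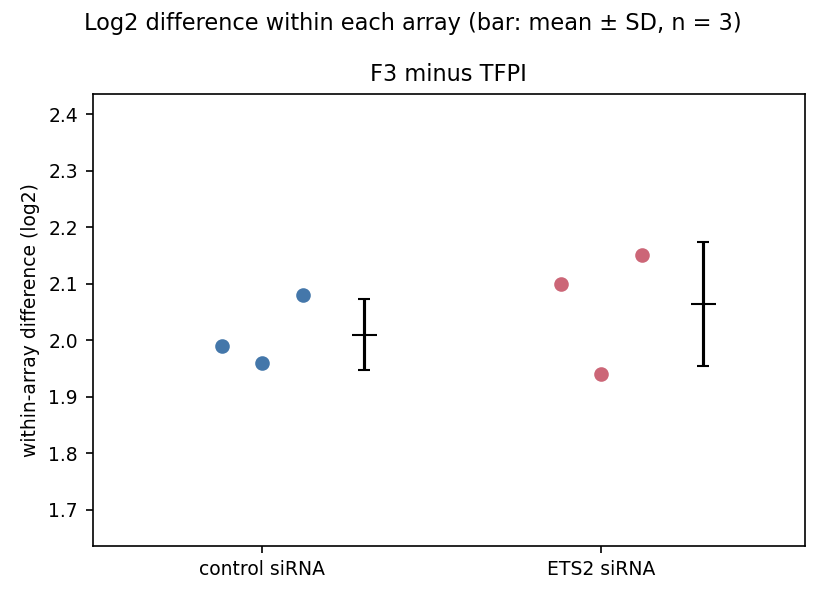
Log2 difference between the probes of F3 and TFPI within each array (vertical axis), by group, with the mean and SD (n = 3) beside the points. The 3 control values, from 1.96 to 2.08, lie within the range of the ETS2 siRNA values, from 1.94 to 2.15.

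The other 2 genes that coagulation needs for initiation, F7 and F10, were near the background. F7, which encodes the partner of tissue factor, read 7.15, 7.0 and 6.93 in controls and 7.15, 7.01 and 6.90 after ETS2 siRNA, with overlapping groups and a difference of -0.01 (95% interval -0.18 to 0.17). F10, whose active product makes thrombin and is a target of TFPI, differed by -0.13 (95% interval -0.28 to 0.03, limma adjusted p = 0.377). In this list of 5, TFPI was the 1 gene that changed, where 4.91% of all genes did.

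The genes of protein C activation, THBD and PROCR, did not pass the test. Thrombomodulin, the THBD product that changes the specificity of thrombin, had levels of 7.90, 7.86 and 7.91 in control cells and 7.86, 7.85 and 7.93 after ETS2 siRNA. Its groups overlapped, with a difference of -0.01 (SE 0.0406, 95% interval -0.10 to 0.08, limma adjusted p = 0.939). PROCR, which presents protein C to that complex, had levels of 8.97, 8.88 and 8.87 in control cells and 8.85, 8.89 and 8.86 after ETS2 siRNA. Control replicate 1 was the highest array, and the groups overlapped. The difference was -0.04 (SE 0.0423, 95% interval -0.14 to 0.06, limma adjusted p = 0.701), and -0.0083 without that array. For both genes the intervals leave out changes as large as that of TFPI.

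F2R, the thrombin receptor also called PAR1, was below the background floor in both groups. It read 5.30, 5.30 and 5.44 in control cells and 5.36, 5.30 and 5.32 after ETS2 siRNA. The groups overlapped, and the difference was -0.02 (SE 0.0495, 95% interval -0.13 to 0.09, limma adjusted p = 0.897). At such a level the lack of a difference is not read as the lack of a change. Of the other receptors of the family, F2RL2 was also below the floor, at 4.71 in both groups, and F2RL3, a second thrombin receptor, was above it, at 7.48 ± 0.03 in controls and 7.41 ± 0.05 after ETS2 siRNA (SD, n = 3). F2RL3 had the smallest p of the 3 measured receptors, with a difference of -0.07 and a limma adjusted p of 0.423.

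The rest of the coagulation system was followed through 10 lists. Without the members they held 94 genes, of which 90 were measured. Among these 4 rose and 6 fell, 11.1% called against 4.91% of all genes, with a median difference of -0.0084 against 0.0033. The lists were drawn up with earlier results of these arrays known, so this share is not independent evidence.

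Transglutaminases are the enzyme family of F13A1, which link glutamine to lysine side chains. Of its 8 genes 3 rose and 0 fell, where 2.28% of all genes rose. F13A1 is itself 1 of the 3, and its higher level was known when the list was drawn up. TGM4, best known from the prostate, went from 7.34, 7.39 and 7.35 to 7.86, 7.66 and 7.85, a difference of 0.43 (SE 0.0585, limma adjusted p = 0.00744). Its control mean, 7.36, lay near the background floor of 6.67. Tissue transglutaminase, encoded by TGM2, went from 11.55, 11.53 and 11.48 to 11.79, 11.81 and 11.73, a difference of 0.26 (SE 0.0415, limma adjusted p = 0.0138). The groups of both were fully separate. TGM4 stayed called with any array left out, while TGM2 lost its call without control replicate 3 or without ETS2 siRNA replicate 1 or 2 (highest limma adjusted p = 0.0696). TGM1, TGM3, TGM5, TGM6 and TGM7 did not pass, with differences from -0.08 to 0.07.

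Of the 14 genes of the intrinsic and common pathway F13A1 was the 1 that changed, 7.14% against 4.91% of all genes. Its higher level was known when the genes were chosen. Below the floor lay 10 of the 14, among them the fibrinogen chains FGA, FGB and FGG and the factor XIII B subunit, F13B. F13B, the carrier of the A subunit in plasma, was at 4.54 in both groups. F5 and F12 were above the floor and differed by -0.05 and 0.04. Prothrombin (F2) differed by -0.02, with means of 6.72 in controls and 6.70 after ETS2 siRNA, barely above the floor of 6.67. Most genes of the plasma cascade were thus read at background in these cells, in both groups.

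Among the 10 genes of the protein C pathway and the serpin anticoagulants 0 changed by limma. An unadjusted p under 0.05 was reached by 1, SERPIND1, where 18.5% of all genes reached it. SERPIND1, the heparin cofactor II gene, had a difference of 0.24 (limma adjusted p = 0.184) with both means below the floor. PROS1, the cofactor of protein C, was at 10.77 ± 0.05 in controls and 10.71 ± 0.04 after ETS2 siRNA (SD, n = 3). PROC read 6.96 ± 0.04 and 7.06 ± 0.06 (SD, n = 3), close to the floor.

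Fibrinolysis, which dissolves the clot that factor XIII stabilises, had 1 higher and 1 lower gene of 11 measured, where 2.28% of all genes were higher and 2.63% lower. PLGRKT, a membrane receptor for plasminogen, rose from 7.89, 8.03 and 7.88 to 8.39, 8.42 and 8.38, a difference of 0.46 (SE 0.0495, limma adjusted p = 0.00266), and stayed called with any array left out. THBS1, the matrix protein thrombospondin, fell from 12.97, 13.01 and 12.96 to 12.77, 12.77 and 12.78, a difference of -0.21 (SE 0.0366, limma adjusted p = 0.0191). Its call was kept in 1 of the 6 fits with an array left out, that without control replicate 2 (limma adjusted p over the 6 from 0.0417 to 0.0864). The plasminogen activators did not pass: PLAU differed by 0.05, PLAT by -0.01 and the urokinase receptor PLAUR by -0.01.

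Signalling parts of the protease-activated receptors and the proteases that cut them had 0 changed genes by limma in the fit used here. In the list of G proteins and arrestins, 10 measured, GNA11, a Gq-class subunit that these receptors use, came closest at -0.15 (limma adjusted p = 0.0720), and it passed under 5 of 10 other settings (lowest 0.00443) and 0 of the 6 fits that left out an array. In the list of 15 measured proteases and their inhibitors it was the membrane protease TMPRSS4 at -0.32 (limma adjusted p = 0.0514). TMPRSS4 read 9.86, 10.03 and 9.83 in control cells and 9.64, 9.67 and 9.44 after ETS2 siRNA, with separate groups. It passed under 7 of 10 other settings, from median-centring (limma adjusted p = 0.0494) to a variance trend (0.00272), and under 0 of the 6 fits that left out an array (0.0845 to 0.150). Matriptase (ST14) differed by -0.09 and prostasin (PRSS8) by 0.01, both proteases of epithelial surfaces. In the vitamin K cycle and secretion list of 8, TPST1, a tyrosine sulfotransferase, had the smallest p, at -0.13 (limma adjusted p = 0.160). An unadjusted p under 0.05 was reached by 4 of the 10 genes in the G protein list, 2 of the 15 in the protease list and 1 of the 8 in the vitamin K list, where 18.5% of all genes reached it.

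Genes that thrombin and these receptors are known to induce had 1 higher and 5 lower of 14 measured, where 2.28% of all genes rose and 2.63% fell. This list too was drawn up with earlier results of these arrays known. IL6 differed by -0.46 (SE 0.0556), from 8.12, 8.24 and 8.32 to 7.78, 7.80 and 7.73. PTGS2, the inducible cyclooxygenase, differed by -0.38 (SE 0.0807) and the matrix signal CCN1 by -0.35 (SE 0.0544). CXCL2 (-0.29) and ICAM1 (-0.17) were also lower, and the growth factor gene HBEGF was higher by 0.26. The early response genes EGR1 (-0.18) and FOS (-0.04) did not pass. IL6 stayed called with any array left out, CCN1 lost its call without ETS2 siRNA replicate 1 or 3 (limma adjusted p = 0.0520 and 0.0638), and PTGS2 was called in 1 of the 6 such fits, that without control replicate 1. These genes answer to many other signals, and the list's median was -0.105.

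**Figure D4:**
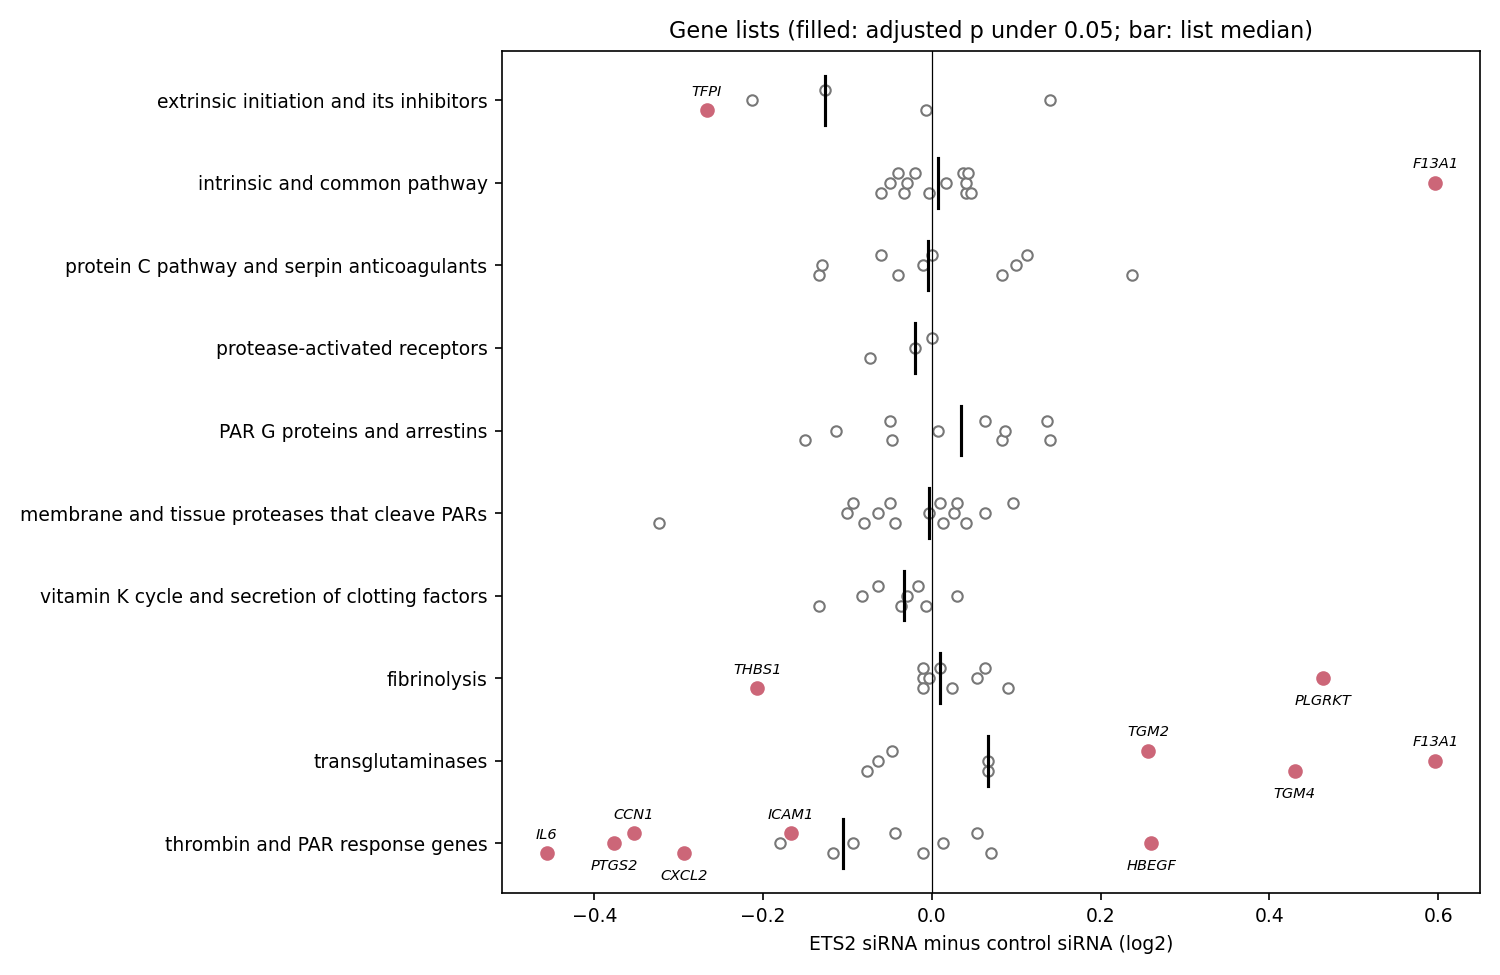
Difference between ETS2 siRNA and control siRNA (log2, horizontal axis) of each measured gene in 10 lists of the coagulation system, with called genes filled and named, other genes as open circles and a bar at each list's median. Calls lie in the lists of initiation, the common pathway, fibrinolysis, transglutaminases and response genes, and 0 lie in the other 5.

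Thrombomodulin, PROCR and TFPI are abundant in endothelium, and endothelial markers are given for that reason. Of 7 markers 3 lay above the floor (KDR, CLDN5 and ESAM), while PECAM1, CDH5, TEK and VWF lay below it. Their summed level ranged from 10.55 to 10.61 in controls and from 10.43 to 10.51 after ETS2 siRNA, lower on each ETS2 siRNA array. KDR, the brightest probe of the list, dominates that sum, at 9.80 ± 0.07 and 9.61 ± 0.05 (SD, n = 3, limma adjusted p = 0.0850). The list held 3 positive differences (PECAM1 0.10, CLDN5 0.08 and ESAM 0.09) and 4 negative ones. Its median was -0.0033, and by limma 0 of the 7 changed. The part of this list in the fall of TFPI was not tested. Of 4 hepatocyte markers, the cell type that makes most plasma factors, ALB and TTR were below the floor and SERPINA1 and APOA1 above it, with summed levels of 11.44 to 11.54 in controls and 11.40 to 11.46 after ETS2 siRNA.

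The genes whose profiles over the 6 arrays came closest to those of the changed members were sought among 13043 genes above the floor, by the root mean square difference between log2 profiles, each centred on its own mean. For F13A1 they were ANTXR2, an anthrax toxin receptor that binds matrix (0.0524), GPAT3, an acyltransferase of glycerolipid synthesis (0.0529), and the semaphorin SEMA7A (0.0607). For TFPI they were PBK, a mitotic kinase (0.0236), RHOBTB3 (0.0238) and ARMC7 (0.0252). All 6 were themselves called, the first group with differences of 0.57, 0.57 and 0.61 and the second with -0.25, -0.27 and -0.26. PBK was called in 0 of the 6 fits with an array left out (limma adjusted p = 0.0642 to 0.113), RHOBTB3 in 5 and ARMC7 in 4, whereas the 3 genes near F13A1 were called in each. With 6 arrays in 2 groups, genes with a like difference between groups come out as near.

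**Figure D5:**
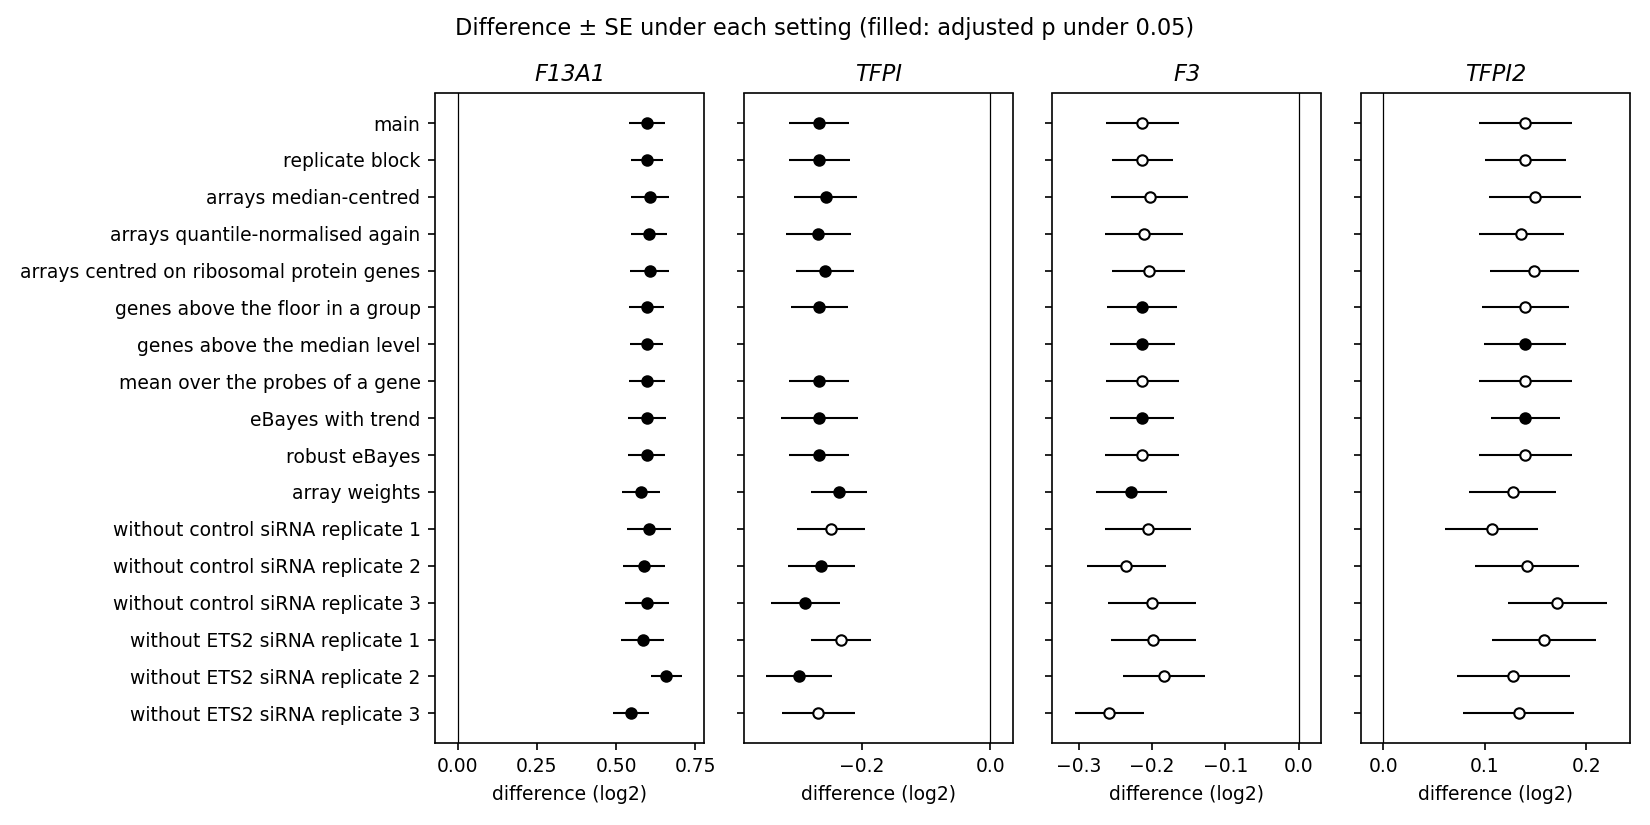
Difference (log2, horizontal axis, with SE) of F13A1, TFPI, F3 and TFPI2 under the main fit and each of 16 other settings (rows), filled where the adjusted p was under 0.05. F13A1 is filled in every row and F3 in 4; TFPI has no point in the row of genes above the median level, where it was not among the genes tested.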

How the data were processed

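RNA of 6 H441 cultures, 3 per siRNA group, was read on Affymetrix arrays, 1 probe set per transcript. The deposited values are log2 levels, 1 column per array, to 2 decimals. The submitters' processing notes name RMA. Neither its settings and version nor a genome build is given in the sources used here. RMA brings arrays to a common distribution, which removes a shift shared by all genes, and compresses the folds of dim genes.

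Of 33297 probes, 19460 carried 1 gene symbol in the platform annotation, 1754 several and 12083 were unnamed here. By gene identifier, 19429 of the 19460 matched a RefSeq gene of GRCh38.p14, and 0 symbols changed. The brightest probe per gene over all arrays left 18417 genes. The floor of 6.67 is the 95th percentile of 341 olfactory receptor genes; 13043 genes lay above it in at least 1 group, and none was left out for being dim. Groups were compared with limma 3.58.1 in R 4.3.3 (lmFit, eBayes without trend, two-sided, Benjamini-Hochberg over all genes), tested on simulated data. Errors of levels are SDs, those of differences moderated standard errors. With 3 arrays per group the smallest exact two-sided permutation p is 0.1, and precision is limited by the number of arrays.

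The members and lists were chosen with earlier results of these data known. Genes named are the members, ETS2, up to 3 changed genes per list with the largest difference or the 1 with the smallest p, and the 3 nearest profiles of each changed member; others (F7, F10, F2RL2, F2, F5, F12, F13B, PROC, PROS1, PLAU, PLAT, PLAUR, ST14, PRSS8, CXCL2, ICAM1, HBEGF, EGR1, FOS and the markers) were named for their role after their values were seen. SERPINB2, AREG, ARRB2 and TPSAB1 had no probe with 1 symbol in the annotation and were not analysed here. The 16 alternatives were a replicate block, 3 rescalings, 2 filters on dim genes, the mean over probes, 2 variance models, array weights and each array left out. Promoter windows and motif matches come from the RefSeq table.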

Additional observations from a re-analysis of the deposited data

How the results depend on the processing

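F13A1 and ETS2 kept their direction and call under all 16 alternatives. The count of changed members stayed at 2 or 3 except with a variance trend, where it was 4, and with an array left out, where it ranged from 1 to 2. Over all genes the count of 904 became 1397 with the genes above the floor, 1963 with the genes above the median level, 1963 with a variance trend, 1480 with array weights and 213 to 735 with an array left out. The 10 changed genes of the wider lists became 16 with a variance trend and 3 to 6 with an array left out. Among the members only differences near 0 changed sign: THBD ran from -0.035 to 0.005 and F2R from -0.0433 to 0.0267 over the fits with an array left out, F2R at a level below background. Over the 26 named genes and all alternatives, 355 values kept the call without a change of sign, 31 lost the call, 19 gained it and 2 changed sign. Differences of 0, which THBD had in some settings, were counted as no change of sign. The labels describe no pairing, so the arrays were not taken as paired. Correlations of deviations were 0.241, 0.233 and 0.069 between same-numbered arrays. Between differently numbered arrays they ran from -0.243 to 0.07, so 0.241 and 0.233 were the highest of all. A shared replicate structure was not tested beyond the fit with a replicate block. With the replicate block 604 genes changed, 2 of them members and 7 in the wider lists, with TFPI at an adjusted p of 0.0480 by limma, while THBS1, PTGS2 and PBK lost their calls and TMPRSS4 gained one (0.0323). TFPI was not tested with the genes above the median level, nor were F2R and THBD. For probes at or below the floor, F2R among the members, the lack of a call is not read as the lack of a change.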
